A study of Homo sapiens with 6 samples.

Results

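DDIT4 and 8 other genes whose protein products hold back the growth kinase complex mTORC1 were followed in polysome RNA of breast cancer cells. They were taken by symbol from the deposited table, and all 9 of 9 were found among its 30726 symbols. They comprise DDIT4, the sestrins SESN1, SESN2 and SESN3, the subunits TSC1, TSC2 and TBC1D7 of the TSC complex, and the inhibitory mTOR partners DEPTOR and AKT1S1. Of these, 8 were at 1 RPKM (reads scaled to transcript length and library size) or more in 3 libraries or more out of 6 and were tested among 10253 such genes. SESN3 stayed below 1 RPKM in every library and was not tested.

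The study used 3 established human breast cancer lines described as wild type: the triple negative SUM1315, the luminal HER2+ SKBR3 and the luminal A line T47D. Each line was grown in its own medium (insulin and EGF for SUM1315, insulin for T47D, neither named for SKBR3) and held at normoxia (21% oxygen) or under hypoxia (1% oxygen) for 8 hours, the time given for hypoxia. All cells received cycloheximide, which holds ribosomes on mRNA, before polysomes were separated on sucrose gradients. There was 1 library per line and oxygen level, so 3 hypoxic libraries were compared with 3 normoxic ones, paired by line. Each line stands for itself only. The p-values rest on the spread between these 3 pairs together with a variance borrowed from all genes tested. RNA of whole lysates was not analysed here, so more mRNA in the cell and more ribosomes per mRNA cannot be told apart. Nor can more cells with an mRNA and more mRNA per cell.

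mTORC1 is a kinase complex on the lysosome that drives ribosome production and protein synthesis when growth factors, energy and amino acids are at hand. The small GTPase RHEB switches it on. The TSC complex switches RHEB off, and AKT, activated by insulin and other growth factors, inhibits the TSC complex. DDIT4, also called REDD1, is a known target of the hypoxia-inducible factor HIF and restrains mTORC1 in low oxygen through the TSC complex. Sestrins are stress-induced proteins that act on the amino acid branch. DEPTOR and AKT1S1, also called PRAS40, sit on the complex itself.

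The libraries matched their labels on most defining markers. ERBB2 was at 615 to 743 RPKM in SKBR3 and at most 8.76 RPKM elsewhere, ESR1 and PGR were above 1 RPKM in T47D alone, and VIM was at 407 to 1161 RPKM in SUM1315 and at most 9.17 RPKM elsewhere. The epithelial keratins KRT8 and KRT18 were below 1 RPKM in SUM1315. Not every marker kept to its line. FOXA1, looked at as a T47D marker, was at 27.2 to 47.2 RPKM in SKBR3 beside 39.5 to 55.5 RPKM in T47D. The epithelial marker CDH1 was at most 0.0147 RPKM in SKBR3. Of 5 markers of other cells, PTPRC, CD3E, PECAM1 and HBB were below 0.1 RPKM in every library. COL1A1 made up nearly all of their summed level, which was 91.7 RPKM at normoxia and 119 RPKM at hypoxia in SUM1315 and at most 2.34 RPKM in the other lines. Its part in the results was not tested. VEGFA, a HIF target, was between 1.47 and 2.19 RPKM at normoxia and between 5.51 and 10.2 RPKM at hypoxia. The hypoxia markers SLC2A1, PDK1 and NDRG1 were also higher at hypoxia in each line. CA9, another, was at only 0.0283 RPKM in hypoxic SUM1315, beside 9.40 RPKM in hypoxic SKBR3 and 0.946 RPKM in hypoxic T47D. By the size of 1 read in the values, 1 RPKM on a transcript of 1 kb stood for 21.7 to 33.4 reads or read pairs.

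The start region of DDIT4 is shown because DDIT4 was the 1 gene of the 9 that passed the test in hypoxia. The 250 bases before its RefSeq start site (chr10:72273674-72273923, GRCh38.p14, plus strand) are given 5′ to 3′, with the cores ACGTG and GCGTG of the HIF binding motif in capitals.
DDIT4: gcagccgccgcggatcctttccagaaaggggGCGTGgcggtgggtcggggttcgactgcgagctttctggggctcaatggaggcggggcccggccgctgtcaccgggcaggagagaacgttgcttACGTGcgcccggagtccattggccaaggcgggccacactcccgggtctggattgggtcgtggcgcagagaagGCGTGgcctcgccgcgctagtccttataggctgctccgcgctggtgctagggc
The cores begin at -219, -125 and -53 from the start site, and a further GCGTG begins at base 26 after it. In windows of 300 bases (250 before and 50 after a start), searched on both strands, 48.4% of 35116 RefSeq windows held either core, 21.4% held ACGTG, 36.5% held GCGTG and 4.4% held 4 or more matches. Of the 9 genes, 7 had windows, 10 in all, and 6 of the 10 held no match. TSC2 held ACGTG on each strand, overlapping, at -114 and -113 in 1 of its 2 windows, TBC1D7 had 2 matches and SESN1 had 1 in 1 of its 3 windows. SESN2, SESN3 and TSC1 had none. A match describes these letters and is no evidence of binding.

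DDIT4 rose in hypoxia in all 3 lines, by more than 10-fold in each. In SUM1315 it stood at 63.3 RPKM at normoxia and 997 RPKM at hypoxia, a ratio of 15.8. In SKBR3 it stood at 76.3 and 853 RPKM, a ratio of 11.2. In T47D it stood at 14.3 and 159 RPKM, a ratio of 11.1. Every hypoxic library was above every normoxic one, which 2.16% of the genes tested showed. T47D was the low line at both oxygen levels, and its hypoxic value was 2.09 times the highest normoxic value of any line.

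The fold change of DDIT4 was 3.60 ± 0.17 on the log2(RPKM + 1) scale (SE, n = 3 lines, limma with cell line as block, Benjamini-Hochberg adjusted p = 1.05e-05), with a 95% interval of 3.23 to 3.98. It was the highest of the 10253 genes tested. With every gene above 0 RPKM in any library included, limma did not call it (adjusted p = 0.40), nor any other gene, and the same was so without the term for cell line (adjusted p = 0.9999). Within single lines its log2 ratio ranked 1 in SUM1315 (3.96), 3 in SKBR3 (3.47) and 1 in T47D (3.39). In level, DDIT4 moved from rank 2949 of all symbols to rank 362 in T47D, from rank 757 to rank 14 in SUM1315 and from rank 714 to rank 29 in SKBR3. Its share of the summed RPKM moved from 0.0050% to 0.0536% in T47D, from 0.0245% to 0.392% in SUM1315 and from 0.0279% to 0.314% in SKBR3. Whether the lines differ in the size of this rise has no test with 1 pair per line.

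DDIT4 spans 72273920 to 72276036 on the plus strand of chromosome 10 (GENCODE 29, GRCh38). Of its 2058 exon bases, 847 also belong to exons of the antisense gene DDIT4-AS1 on the other strand. The table lists DDIT4-AS1 at no more than 2.24e-29 RPKM, so nearly all reads there were given to DDIT4, and with the strand setting not given in the sources used here they cannot be told apart. On the 1748-base coding transcript, the DDIT4 values stand for about 603 to 41219 reads, so counting error is small beside the changes.

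**Figure D1:**
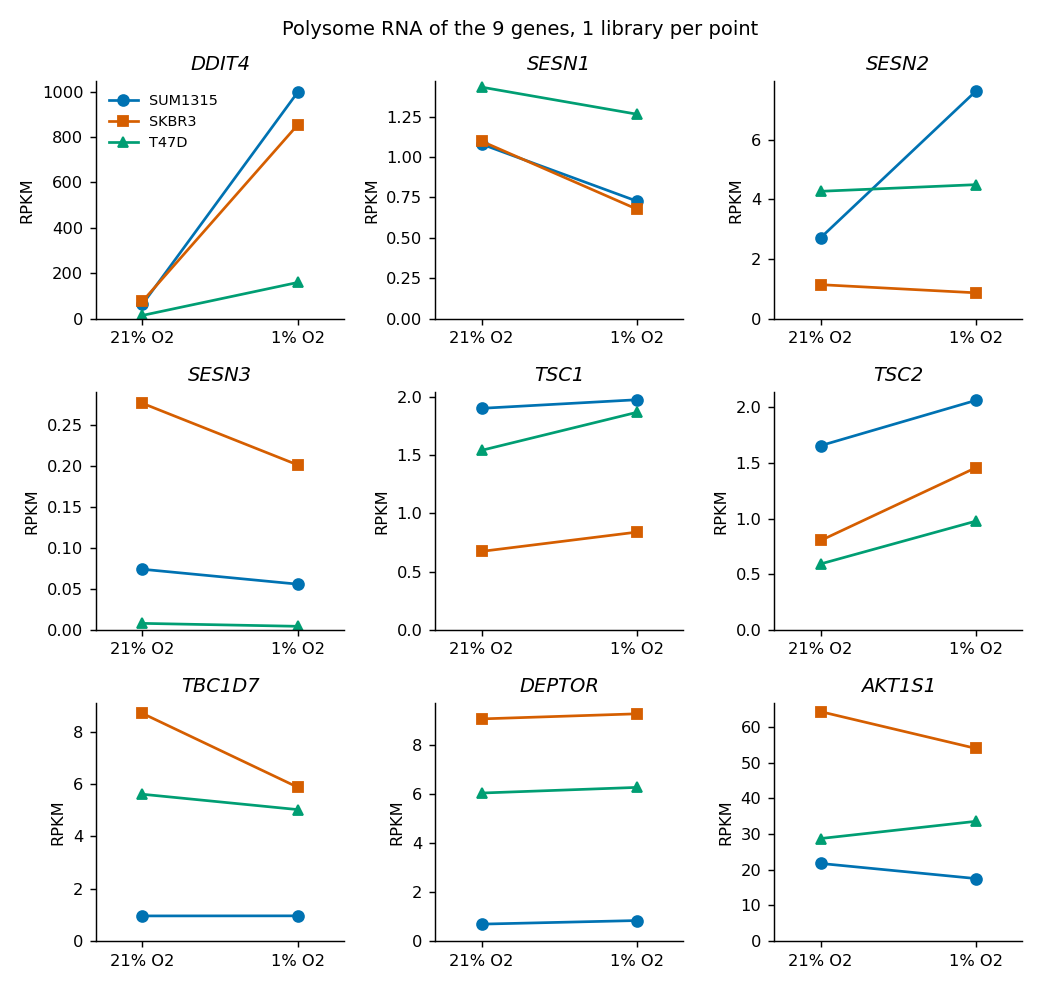
RPKM (vertical axes, each from 0) of the 9 genes at 21% and 1% oxygen, 1 point per library, with lines joining the libraries of a cell line. DDIT4 climbs in each line, to 997, 853 and 159 RPKM. TSC2 is higher and SESN1 lower at 1% oxygen in each line, and SESN2 climbs steeply in SUM1315 only.

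Apart from DDIT4, no gene of the 9 passed the test in hypoxia. Of the 8 tested, 1 was higher (background 4.12% of 10253 genes) and 0 were lower (background 2.26%), and 7 did not pass. At an unadjusted p under 0.05, TSC2 was the only further gene, so 2 of the 8 were under it, beside 26.3% of all genes tested. The median fold change of the 8 was 0.09, beside -0.01 for all genes tested.

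Sestrins SESN1 and SESN2 protect cells under genotoxic and metabolic stress, and SESN2 binds leucine and the GATOR2 complex. SESN2 (chromosome 1, 28259527 to 28282491, plus strand) differed between the lines. It moved from 2.72 to 7.64 RPKM in SUM1315, from 1.14 to 0.867 RPKM in SKBR3 and from 4.27 to 4.50 RPKM in T47D. Only the SUM1315 pair moved far: its log2 ratio of 1.22 ranked 90 of 10253, beside -0.20 in SKBR3 and 0.06 in T47D. A log2 ratio of 0.5 or more was seen in 8.47% of genes in SUM1315. Over the 3 lines the fold change was 0.36 ± 0.23 (adjusted p = 0.34), and without SUM1315 it was -0.07 (adjusted p = 0.87). The difference between lines in this ratio was not tested, since each line has 1 pair.

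SESN1 (chromosome 6, 108986437 to 109094819, minus strand) was low throughout and lower at hypoxia in each line. It moved from 1.08 to 0.727 RPKM in SUM1315, from 1.10 to 0.678 RPKM in SKBR3 and from 1.43 to 1.27 RPKM in T47D. The groups overlapped, and the fold change of -0.23 ± 0.11 did not pass (adjusted p = 0.22). A log2 ratio below 0 in all 3 lines was found in 25.2% of genes. SESN1 passed the filter with 4 libraries at 1 RPKM or more, the 3 normoxic ones and hypoxic T47D.

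SESN3 (chromosome 11, 95165513 to 95232541, minus strand) was close to the floor. It was at 0.0741 and 0.0558 RPKM in normoxic and hypoxic SUM1315, and at 0.277 and 0.202 RPKM in SKBR3. In T47D it was at 0.00784 and 0.00425 RPKM, about 1.81 and 0.903 reads on its longest coding transcript of 9558 bases. The T47D values are below the 0.0130 to 0.0141 RPKM that 3 reads would give there, so no change was detectable at this depth. SESN2 exceeded SESN1 in level in every library, from 1.04 times in normoxic SKBR3 to 10.5 times in hypoxic SUM1315.

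The TSC complex is a GTPase-activating complex in which TSC2 carries the catalytic domain, TSC1 stabilises TSC2 and TBC1D7 binds TSC1. Its subunits had no change that passed. TSC2 (chromosome 16, 2047465 to 2089487, plus strand) moved from 1.65 to 2.06 RPKM in SUM1315, from 0.802 to 1.46 RPKM in SKBR3 and from 0.592 to 0.977 RPKM in T47D. It was thus higher at hypoxia by 24.6%, 81.5% and 65.0%, but the groups overlapped, because normoxic SUM1315 exceeded hypoxic SKBR3 and T47D. The fold change was 0.32 ± 0.11 (95% interval 0.07 to 0.57, unadjusted p = 0.017, adjusted p = 0.11, limma). A log2 ratio above 0 in all 3 lines was found in 23.5% of genes, and TSC2 passed the filter with exactly 3 libraries at 1 RPKM or more. TSC2 shares 778 of its 19626 annotated exon bases with PKD1 and 402 with NTHL1, both on the other strand. PKD1 was at 1.27 to 8.04 RPKM and NTHL1 at 11.3 to 26.0 RPKM, above TSC2 in every library. With the strand setting not given, reads on the shared bases cannot be told apart. Their part in the TSC2 values was not tested.

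TSC1 (chromosome 9, 132891348 to 132946874, minus strand) moved from 1.90 to 1.97 RPKM in SUM1315, from 0.673 to 0.838 RPKM in SKBR3 and from 1.54 to 1.87 RPKM in T47D, a fold change of 0.12 ± 0.11 (adjusted p = 0.53). TBC1D7 (chromosome 6, 13266542 to 13328583, minus strand) was at 0.955 and 0.958 RPKM in normoxic and hypoxic SUM1315. It moved from 8.69 to 5.87 RPKM in SKBR3 and from 5.60 to 5.02 RPKM in T47D. Its fold change was -0.21 ± 0.14 (adjusted p = 0.36), with the largest step, a log2 ratio of -0.50, in SKBR3. TBC1D7 shares 700 exon bases with PHACTR1 on the other strand, which was at 0.00391 to 3.77 RPKM, and the same strand limit holds. The 95% intervals of TSC1 (-0.13 to 0.37) and TBC1D7 (-0.52 to 0.10) leave room for changes of either sign.

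The proportions of the TSC subunits' RNA differed by line. TSC2 stood at 0.871 and 1.04 times TSC1 in normoxic and hypoxic SUM1315, at 1.19 and 1.74 times in SKBR3, and at 0.384 and 0.523 times in T47D. The ratio was higher at hypoxia in 3 of 3 lines. TBC1D7 stood at 0.502 and 0.485 times TSC1 in normoxic and hypoxic SUM1315. It stood at 3.64 and 2.69 times in T47D and at 12.9 and 7.0 times in SKBR3, lower at hypoxia in 3 of 3 lines. How often a ratio of other genes moves the same way in all lines was not measured. These are RPKM ratios, scaled for length, and were not tested.

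DEPTOR binds mTOR directly and inhibits both mTOR complexes, and AKT1S1 blocks substrates from mTORC1 until AKT phosphorylates it. DEPTOR (chromosome 8, 119873717 to 120050913, plus strand) moved from 0.684 to 0.830 RPKM in SUM1315, from 9.05 to 9.25 RPKM in SKBR3 and from 6.03 to 6.26 RPKM in T47D. All 3 steps were upward and small, and the fold change was 0.07 ± 0.13 (95% interval -0.21 to 0.34, adjusted p = 0.77). AKT1S1 (chromosome 19, 49869033 to 49878459, minus strand) moved from 21.7 to 17.5 RPKM in SUM1315, from 64.3 to 54.0 RPKM in SKBR3 and from 28.7 to 33.6 RPKM in T47D. It was lower at hypoxia in SUM1315 and SKBR3 and higher in T47D, with a fold change of -0.11 ± 0.16 (adjusted p = 0.69). AKT1S1 shares 392 exon bases with TBC1D17 on the other strand, which was at 5.34 to 7.84 RPKM.

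AKT1S1 was the more abundant of these partners. Relative to MTOR, the kinase they bind, AKT1S1 RNA was 4.99 to 5.64 times as high in SUM1315, 30.7 to 31.3 times in T47D and 43.0 to 59.9 times in SKBR3. DEPTOR was at 0.177 to 0.237 times MTOR in SUM1315 and at 5.73 to 8.42 times in T47D and SKBR3. The AKT1S1 ratio was lower at hypoxia in each line, while the DEPTOR ratio was higher in SUM1315 and lower in SKBR3 and T47D. These ratios were not tested. MTOR itself, named here after its values were seen, had a fold change of 0.05 ± 0.12 in hypoxia (adjusted p = 0.83).

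**Figure D2:**
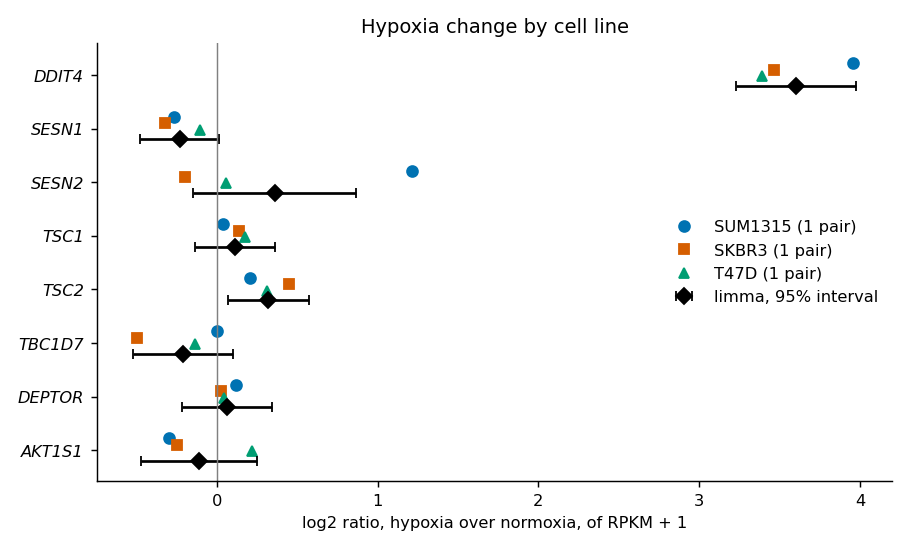
Log2 ratios of RPKM + 1 (horizontal axis) of hypoxia over normoxia for the 8 genes tested, with 1 coloured symbol per cell line and the limma estimate with its 95% interval in black. DDIT4 stands at 3.39 to 3.96 in the 3 lines; SESN2 is spread from -0.20 to 1.22.

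**Figure D3:**
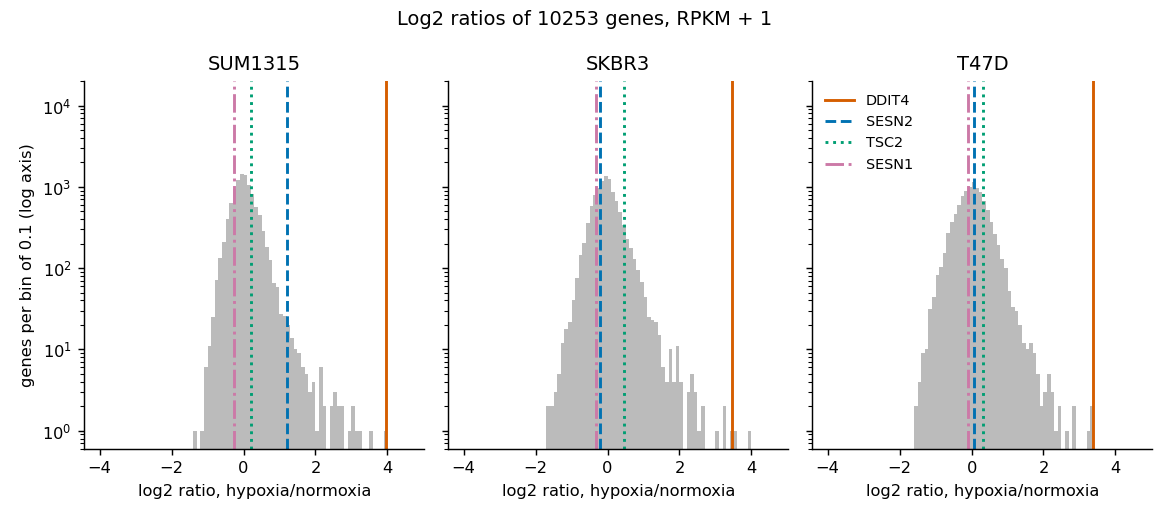
Number of genes per bin of 0.1 (vertical log axis) against the log2 ratio of hypoxia over normoxia in each line, for 10253 genes, with 4 genes marked by vertical lines. DDIT4 lies at the upper end in each line, SESN2 lies in the upper tail in SUM1315 only, and TSC2 and SESN1 lie within the bulk.

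DDIT4 was the largest contributor to the summed RPKM of the 9 genes in every hypoxic library. It made up 67.3% of the sum in normoxic SUM1315, 47% in SKBR3 and 22.9% in T47D. At hypoxia it made up 96.9%, 92.1% and 74.9% in the same order. In normoxic T47D AKT1S1, at 28.7 RPKM, exceeded DDIT4, at 14.3 RPKM.

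Between the lines, with oxygen as a term, SUM1315 was low in DEPTOR, TBC1D7 and AKT1S1, SKBR3 was low in SESN2 and TSC1, and T47D was low in DDIT4. Of the 8 genes, 6 differed between SUM1315 and SKBR3, 5 between SUM1315 and T47D and 5 between SKBR3 and T47D at adjusted p under 0.05. These counts are near the background of 69.8%, 69.2% and 57.9% of all genes tested, so the differences below describe the 8 genes and do not set them apart from other genes. The contrasts come from the same limma fit with oxygen as a term, and the 2 libraries of a line are its only replication. Each line also had its own medium, with insulin and EGF named for some lines only. Differences between lines and between media therefore cannot be told apart.

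DDIT4 did not pass between SUM1315 and SKBR3 (log2 difference -0.021 ± 0.21, 95% interval -0.48 to 0.44), and was higher than in T47D by 2.35 ± 0.21 in SUM1315 (adjusted p = 4.57e-06) and by 2.38 ± 0.21 in SKBR3 (adjusted p = 8.15e-06). DEPTOR was lower in SUM1315 than in SKBR3 (-2.53 ± 0.15) and T47D (-2.02 ± 0.15). TBC1D7 was likewise lower in SUM1315 (-2.06 ± 0.17 and -1.69 ± 0.17). With a pseudocount of 5 the differences from SKBR3 stayed past the threshold but were smaller, at -1.30 for DEPTOR and -1.03 for TBC1D7. DEPTOR was higher in SKBR3 than in T47D by 0.51 ± 0.15 (adjusted p = 0.017), which missed the threshold without normoxic SKBR3 (adjusted p = 0.058), hypoxic T47D (0.11) or normoxic T47D (0.091). AKT1S1 was highest in SKBR3, then T47D, then SUM1315, with each step past the threshold. The SUM1315 minus T47D difference of -0.64 ± 0.20 missed it without hypoxic SUM1315 (adjusted p = 0.20) or hypoxic T47D (adjusted p = 0.16).

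SESN2 was lowest in SKBR3, with SUM1315 minus SKBR3 at 1.5 ± 0.28 (adjusted p = 0.00079, and 0.86 with adjusted p = 0.0012 without hypoxic SUM1315) and SKBR3 minus T47D at -1.43 ± 0.28 (adjusted p = 0.0016). SUM1315 and T47D did not differ beyond their spread (0.07 ± 0.28, adjusted p = 0.83), and without a SUM1315 library that contrast turned from -0.57 without the hypoxic one (adjusted p = 0.031) to 0.72 without the normoxic one (adjusted p = 0.0086). TSC1 was lowest in SKBR3 too, with SUM1315 minus SKBR3 at 0.74 ± 0.14 (adjusted p = 0.00074) and SKBR3 minus T47D at -0.62 ± 0.14 (adjusted p = 0.0032). TSC2 was higher in SUM1315 than in SKBR3 (0.44 ± 0.14, adjusted p = 0.016) and T47D (0.68 ± 0.14, adjusted p = 0.0014). The TSC2 difference from SKBR3 was lost without normoxic SUM1315 (adjusted p = 0.13) or normoxic SKBR3 (adjusted p = 0.11). The median over all genes of SUM1315 minus SKBR3 was 0.21 and became -0.0039 when libraries were scaled by the median ratio, under which the TSC2 difference was 0.27 (adjusted p = 0.10). SESN1 passed in no contrast, though under that scaling its SUM1315 minus T47D difference was -0.40 (adjusted p = 0.021), and with genes at 1 RPKM in 2 libraries included its difference of -0.31 passed (adjusted p = 0.0497). TBC1D7 did not pass between SKBR3 and T47D (0.37 ± 0.17, adjusted p = 0.087), but did with median ratio scaling (0.44, adjusted p = 0.045) or without hypoxic SKBR3 (0.59, adjusted p = 0.029), while without normoxic SKBR3 the difference was 0.16 (adjusted p = 0.51). Without the expression filter the SESN2 differences of SKBR3 from SUM1315 (adjusted p = 0.085) and from T47D (adjusted p = 0.12), the TSC2 difference between SUM1315 and SKBR3 (adjusted p = 0.062) and the AKT1S1 differences of T47D from SUM1315 (adjusted p = 0.074) and from SKBR3 (adjusted p = 0.051) were not called.

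**Figure D4:**
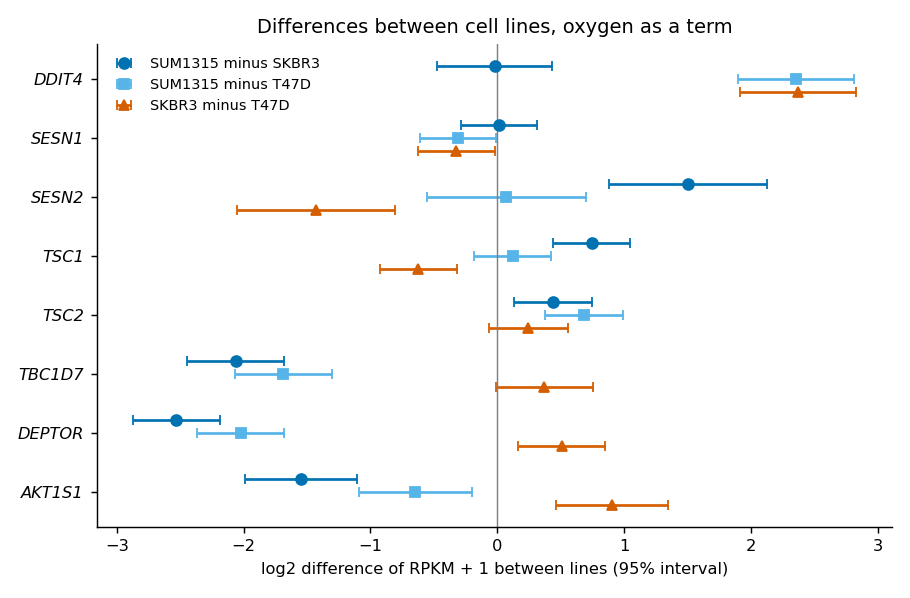
Log2 differences of RPKM + 1 between cell lines (horizontal axis) for the 8 genes tested, with 95% intervals from limma. DEPTOR and TBC1D7 lie between -2.53 and -1.69 for SUM1315 against either other line, and DDIT4 lies at 2.35 and 2.38 against T47D.

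Around the brakes, most other genes of the mTORC1 pathway did not pass in hypoxia. Of 88 such genes in 7 lists, 70 were tested; 5 rose, 1 fell and 64 did not pass, beside backgrounds of 4.12% and 2.26%. Their median fold change was 0.02. The rises were BNIP3, RRAGD, RHEBL1, EIF4B and BMT2, and the fall was SEH1L.

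On the growth factor side, 1 of 10 genes passed as a rise and none as a fall. RHEBL1, a RHEB paralog, moved from 3.30 to 10.1 RPKM in SUM1315, from 0.806 to 2.45 RPKM in SKBR3 and from 0.894 to 3.01 RPKM in T47D, a fold change of 1.13 ± 0.13 (adjusted p = 0.0020). RHEB itself, named here after its values were seen, was far more abundant, at 36.7 to 96.6 RPKM at normoxia and 51.1 to 113 RPKM at hypoxia, and its 0.24 ± 0.16 did not pass (adjusted p = 0.36). The lowest value of the list was that of the PI3-kinase subunit PIK3CB (-0.28 ± 0.14, adjusted p = 0.23).

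On the amino acid side, 1 of 10 genes of the Rag GTPases and their lysosomal anchor passed as a rise. RRAGD, a Rag GTPase, moved from 1.71 to 5.14 RPKM in SUM1315, from 2.43 to 4.88 RPKM in SKBR3 and from 2.13 to 11.6 RPKM in T47D (1.32 ± 0.20, adjusted p = 0.0084). RRAGA was lowest, at -0.46 ± 0.18 (adjusted p = 0.15). Of 13 GATOR, KICSTOR and sensor genes, BMT2, the S-adenosylmethionine sensor also called SAMTOR, rose (0.55 ± 0.14, adjusted p = 0.045) and SEH1L, a GATOR2 and nuclear pore subunit, fell (-0.70 ± 0.14, adjusted p = 0.023). BMT2 missed the threshold with any line left out (adjusted p = 0.12 without SUM1315, 0.097 without SKBR3 and 0.058 without T47D). It also missed it with a pseudocount of 5 (0.26, adjusted p = 0.079), the filter at 2 libraries (adjusted p = 0.081), median ratio scaling (adjusted p = 0.057) or no mean-variance trend (adjusted p = 0.059). SEH1L missed it with T47D left out (adjusted p = 0.12).

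None of 8 subunits and assembly factors of the mTOR complexes and none of 7 AMPK and LKB1 genes passed with limma. In each of these lists 1 gene had an unadjusted p under 0.05, beside 26.3% of all genes tested. The share under 0.05 was also below 26.3% in the growth factor list and the GATOR, KICSTOR and sensor list. It was above 26.3% in the Rag list, among the substrates and outputs, and among the other brakes. The genes under 0.05 included both rises and falls in the Rag list and among the substrates and outputs. Among the other brakes they were all rises. The lists are short, and no list was tested as a set. RPTOR, the scaffold of mTORC1, was highest in its list at 0.48 ± 0.15 (adjusted p = 0.080) and MLST8 lowest at -0.10 ± 0.17. In the AMPK list PRKAB2 was highest (0.20 ± 0.18) and CAB39 lowest (-0.39 ± 0.14, adjusted p = 0.11). Of 15 mTORC1 substrates and outputs, the initiation factor EIF4B rose by 0.81 ± 0.15 (adjusted p = 0.018, and 0.058 with T47D left out), and RPS6 was lowest (-0.59 ± 0.17, adjusted p = 0.066).

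Among 7 other brakes tested, the mitophagy receptor BNIP3, which also binds RHEB, rose by 2.80 ± 0.24 (adjusted p = 0.00026) and the pseudokinase TRIB3 was lowest (-0.31 ± 0.24, adjusted p = 0.43). BNIP3 moved from 8.13 to 79.7 RPKM in SUM1315, from 25.1 to 100.4 RPKM in SKBR3 and from 11.9 to 126.5 RPKM in T47D. DDIT4L, the paralog of DDIT4, named here after its values were seen, was below the filter, at 0.629 and 0.918 RPKM in normoxic and hypoxic SKBR3, and is listed at 0 in the other 4 libraries.

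**Figure D5:**
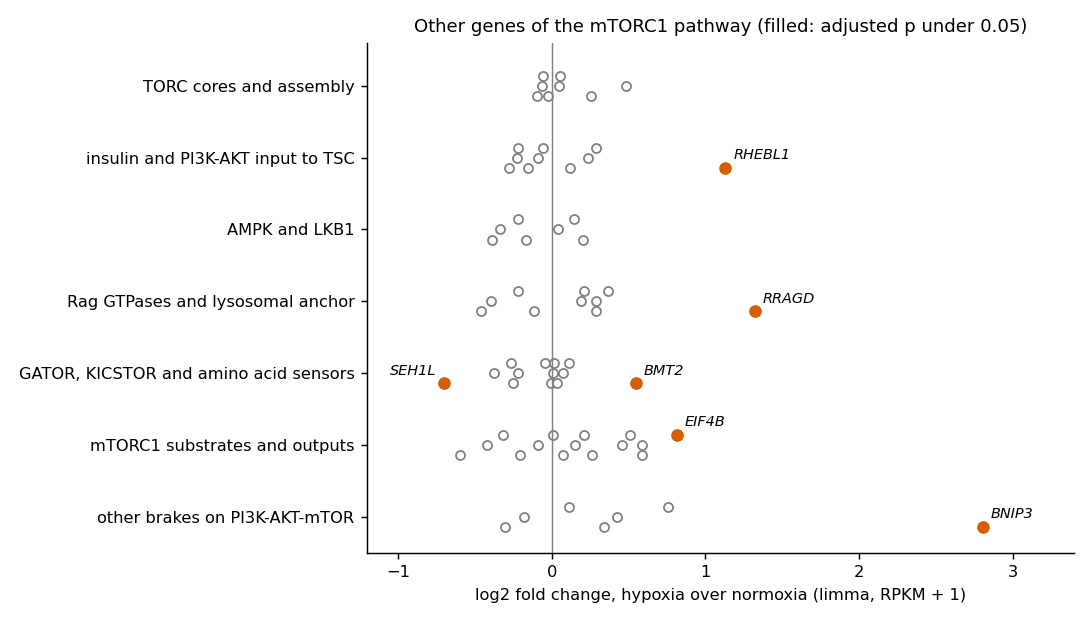
Log2 fold changes of hypoxia over normoxia (horizontal axis) of the 70 other pathway genes tested, by list; filled symbols passed the limma test. The 5 rises run from 0.55 (BMT2) to 2.80 (BNIP3) and the 1 fall is SEH1L at -0.70. The other 64 genes lie from -0.59 to 0.75, so some that did not pass lie above BMT2.

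The genes whose log2(RPKM + 1) followed that of DDIT4 most closely over the 6 libraries were PRPF6 (Pearson r = 0.99), RIOK3 (0.99), PDLIM2 (0.98), GYS1 (0.98) and PGK1 (0.98), with no p given. The 6 points share 3 lines and 2 oxygen levels, and are highest in hypoxic SUM1315 and SKBR3 and lowest in normoxic T47D. The splicing factor PRPF6 spanned 9.07 to 19.6 RPKM and the glycolytic enzyme PGK1 11.2 to 63.9 RPKM, against 14.3 to 997 RPKM for DDIT4.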

How the data were processed

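The 6 polysome libraries came as 1 table of 30726 symbols. Its header names no unit: the deposited values were read as RPKM because, in genes with 1 GENCODE 29 transcript, 61.9% to 64.7% of the products of value and length lay within 0.02 of a whole number of equal steps (4% by chance). Per the submitters' processing notes, Trimmomatic, HISAT2, SAMtools, Partek and GRCh38 (hg38) were used; versions, annotation and strand were not given in the sources used here. RPKM scaled to library size shows shares of polysome RNA, not totals.

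Genes at 1 RPKM or more in 3 libraries were fitted as log2(RPKM + 1), which understates changes of low genes, with limma 3.58.1 in R 4.3.3 (cell line and oxygen as terms, mean-variance trend, two-sided, Benjamini-Hochberg adjusted p under 0.05; 8.02 prior and 2 residual degrees of freedom). In simulated data of hypoxia against normoxia over 10253 genes with 200 changed, 98% of log2 changes of 1 and 100% of those of 2 were recovered. Of the unchanged genes, 12 were called. Noise was drawn from the variances of this same fit, and each change was the same in every line. Responses that differ between lines were not simulated, so these shares do not measure recovery of such changes. The changed genes were drawn only above a mean level that SESN1, SESN2, TSC1, TSC2, TBC1D7 and DEPTOR did not reach. Recovery at the level of these genes was therefore not measured. Libraries of the same line form the pairs, and their deviations from the oxygen group means correlated at 0.94 to 0.97. Members and lists were chosen with earlier results of these data known. Named genes are the 9, list genes past the threshold or at a list's ends, and the 5 closest to DDIT4. Alternatives covered pseudocount, filter, scaling, trend, block and libraries left out. Approximate reads use a gene's longest coding transcript and cover counting error only.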

Additional observations from a re-analysis of the deposited data

Results flagged for a closer look

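Lines moved in opposite directions for 2 of the 9 genes, counting lines where the gene reached 1 RPKM. For SESN2 the log2 ratio of hypoxia over normoxia was 1.22 in SUM1315 and 0.060 in T47D, against -0.20 in SKBR3. For AKT1S1 it was 0.22 in T47D, against -0.30 in SUM1315 and -0.25 in SKBR3. Each ratio is 1 library against 1 library, so the difference between lines was not tested.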

How the results depend on the processing

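DDIT4 kept its direction under each alternative tried (3.43 to 3.71 with a line left out) but was not called without the replicate block for cell line (3.60, adjusted p = 0.9999) or without the expression filter (3.60, adjusted p = 0.40). In both of these, limma called 0 genes higher and 0 lower among all genes, the 9 genes and the pathway lists (68 and 2715 at an unadjusted p under 0.05). Over all genes, where 422 were higher and 232 lower, the counts were 171 and 72 with a pseudocount of 5 and 209 and 67 with the filter at 2 libraries. With upper quartile scaling 126 were lower, and 79.6% of calls were higher in place of 64.5%. With a line left out 179 to 552 were higher and 53 to 271 lower. The pathway fall, SEH1L, was not called (0 lower) with a pseudocount of 5 or the filter at 2 libraries, and with a line left out the count ran from 0 to 1. With median ratio scaling 49.3% of calls in SUM1315 minus SKBR3 were higher in place of 59.9%. The cause was not tested.

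In hypoxia against normoxia, 235 of 264 alternative values of 24 named genes kept their sign and side of the threshold, 25 lost their call and 4 turned sign: SESN2 to -0.069 without SUM1315, and PRKAB2 to -0.029, MLST8 to 0.099 and TRIB3 to 0.080 without SKBR3. Between lines, 10 of 312 values turned sign. For SUM1315 minus SKBR3, SESN1 became -0.021 with upper quartile and -0.11 with median ratio scaling. For SUM1315 minus T47D, SESN2 became -0.086 and TSC1 -0.0038 with median ratio scaling. With 1 library left out, SESN1 ran from -0.054 to 0.083 and DDIT4 from -0.29 to 0.24 for SUM1315 minus SKBR3, and SESN2 from -0.57 to 0.72 for SUM1315 minus T47D. The counts of the 9 genes called between lines stayed within 4 to 6 under every alternative run. At 21.7 to 33.4 reads per RPKM and kb, depth limits SESN3 in T47D most.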
